A study of Mus musculus with 16 samples.

Results

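5S and 5.8S ribosomal RNA (rRNA) are the small RNAs of the large ribosomal subunit, and fragments of both were present in the small RNA of mouse sperm. Members were the sequenced reads of 18 to 44 nt that matched 5S or 5.8S rRNA along their whole length, without a mismatch and in the sense direction. They comprised 3812 distinct sequences of 4230643 in the 8 sperm libraries, and 1510756 reads of 103084122. Of these, 1866 sequences and 401053 reads belonged to 5S rRNA, and 1946 sequences and 1109703 reads belonged to 5.8S rRNA. No sequence matched both.

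The study asked whether sperm small RNA carries a metabolic effect of the father's diet and whether Dnmt2 (Trdmt1), a tRNA cytosine methyltransferase, is needed for it. Mature sperm were taken from the cauda epididymis of C57BL/6NCrl males, and total RNA was extracted with Trizol. Sequencing used TruSeq small RNA libraries, a kit that captures RNA with a 5' phosphate and a 3' hydroxyl. There were 2 libraries in each of 4 groups: Dnmt2-/- males on a high-fat diet (HFD, D12492), Dnmt2+/+ males on HFD, Dnmt2-/- males on a normal diet (ND, Diet 1415), and Dnmt2+/+ males on ND. The Dnmt2-/- males carried the B6;129-Dnmt2tm1Bes/J allele backcrossed to C57BL/6NCrl, and males were 6 weeks old at purchase. Dnmt2 mRNA is not measured in such libraries, so the genotype was not checked here. The labels do not say whether a library was 1 male or a pool, nor that replicates were separate animals. The p-values below therefore speak only of library-to-library spread, and that spread may be technical.

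5S rRNA is transcribed from its own gene clusters by RNA polymerase III and binds the ribosomal proteins uL18 and uL5 in the central protuberance of the large subunit. 5.8S rRNA is cut out of the long precursor made by RNA polymerase I, where it lies between 2 internal transcribed spacers, and its 5' part pairs with 28S rRNA. Mature sperm carry little intact ribosomal RNA, and short rRNA fragments are a known part of their small RNA. The GRCm38.p6 annotation of RefSeq lists 48 5S genes on mouse chromosome 8, at chr8:123538784-123622046, with Rn5s at chr8:123598156-123598276. Of these genes, 32 are 121 nt long and 16 are 119 nt long.

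Rebuilt from overlapping reads, 5S rRNA was 121 nt long, the same length as Rn5s, and 5.8S rRNA was 157 nt long. Base 1 is the 5' end throughout. Fragments were called 5' if they started within the first 3 bases, 3' if they ended within the last 3, and internal otherwise. The 5S reads below were chosen because they are abundant in their class or had the lowest p in a comparison. Capitals mark the bases that a read shares with another of the reads shown.
5S bases 35 to 61: tcgtctgatctCGGAAGCTAAGCAGGG
5S bases 46 to 71: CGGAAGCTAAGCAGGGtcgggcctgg
5S bases 84 to 120: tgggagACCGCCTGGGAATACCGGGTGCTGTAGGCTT
5S bases 90 to 120: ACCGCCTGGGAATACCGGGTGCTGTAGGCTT

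Library totals were 10165031 to 19030258 reads, and the members made up 1.08% to 1.79% of a library. A count of 0 allows up to 3 reads, or 0.158 to 0.295 reads per 1000000 (CPM). The libraries fell into 3 sets by their sequence errors, which the labels do not mention. In set A (both Dnmt2-/- ND libraries and Dnmt2+/+ ND replicate 1), the 29th base of a read changed from G to T in a median of 381 to 479 of 10000 reads of abundant sequences, against at most 4.15 elsewhere. In set B (Dnmt2-/- HFD replicate 1 and both Dnmt2+/+ HFD libraries), base 26 changed from C to G in a median of 10.01 to 10.7 of 10000 reads, against at most 1.14 elsewhere. Set C held the other two, Dnmt2-/- HFD replicate 2 and Dnmt2+/+ ND replicate 2. Set A was all ND and set B all HFD, so diet and set cannot be told apart except within set C, where each diet has 1 library and the genotypes differ too.

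Marker microRNAs also moved with diet and with library set. The summed let-7 microRNAs (8 of 8 matched) ranged from 11376.5 to 45315 CPM in HFD libraries and from 2110 to 4426 CPM in ND libraries, and all 8 were higher in every HFD library than in every ND library. Germ line markers (7 of 8 matched) summed to 5313 to 6402 CPM in HFD libraries and 2374 to 5093 CPM in ND libraries. Of these 7, only miR-10a-5p and miR-10b-5p were higher in every HFD library than in every ND library, while miR-881-3p was at 270 to 728 CPM on HFD and 316 to 1398 CPM on ND. Epididymal epithelium markers (5 of 5 matched) summed to 608 to 3987 CPM in HFD libraries and 190 to 1914 CPM in ND libraries, and by set to 190 to 412 CPM in A, 3035 to 3987 CPM in B and 608 to 1914 CPM in C. Blood markers (6 of 7 matched, 1 of them at 0 in every library) summed to 35.6 to 86.3 CPM in HFD libraries and 2.79 to 33.99 CPM in ND libraries. Most of that sum was miR-146a-5p, at 31.6 to 81.7 CPM on HFD and 2.05 to 28.7 CPM on ND. Only it and miR-142a-3p were higher in every HFD library than in every ND library. The diets overlapped for miR-451a (0.874 to 2.07 CPM on HFD and 0.303 to 2.20 CPM on ND), miR-223-3p and miR-142a-5p. The liver list (2 of 3 matched) summed to 6.40 to 11.8 CPM in HFD libraries and 16.2 to 26.8 CPM in ND libraries. Most of it was miR-192-5p, while miR-194-5p overlapped, at 0.485 to 2.85 CPM on HFD and 0.531 to 3.44 CPM on ND. The 1 of 5 muscle markers that matched, miR-206-3p, was at 0.676 to 75.3 CPM in HFD libraries and 0.0759 to 0.158 CPM in ND libraries, with set B alone spanning 64.7 to 75.3 CPM and no other library above 0.676 CPM. Markers that did not match were not analysed here. In such bulk libraries fewer cells of a type and less RNA per cell cannot be told apart. The part of these lists in the results below was not tested.

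The 2 rRNAs left different fragments. 5.8S fragments came mostly from the 5' end, while 5S fragments came from both ends and the middle. Reads covering base 18 of 5.8S rRNA averaged 10036 CPM over the 8 libraries, whereas the least covered base, its last, averaged 3.81 CPM. Along 5S rRNA the best covered base, 104, averaged 2012 CPM and the least covered, 74, averaged 203 CPM. Every base of both rRNAs was covered. Reads were found in 1866 of the 2457 possible windows of 5S rRNA and in 1946 of the 3429 of 5.8S rRNA.

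**Figure D1:**
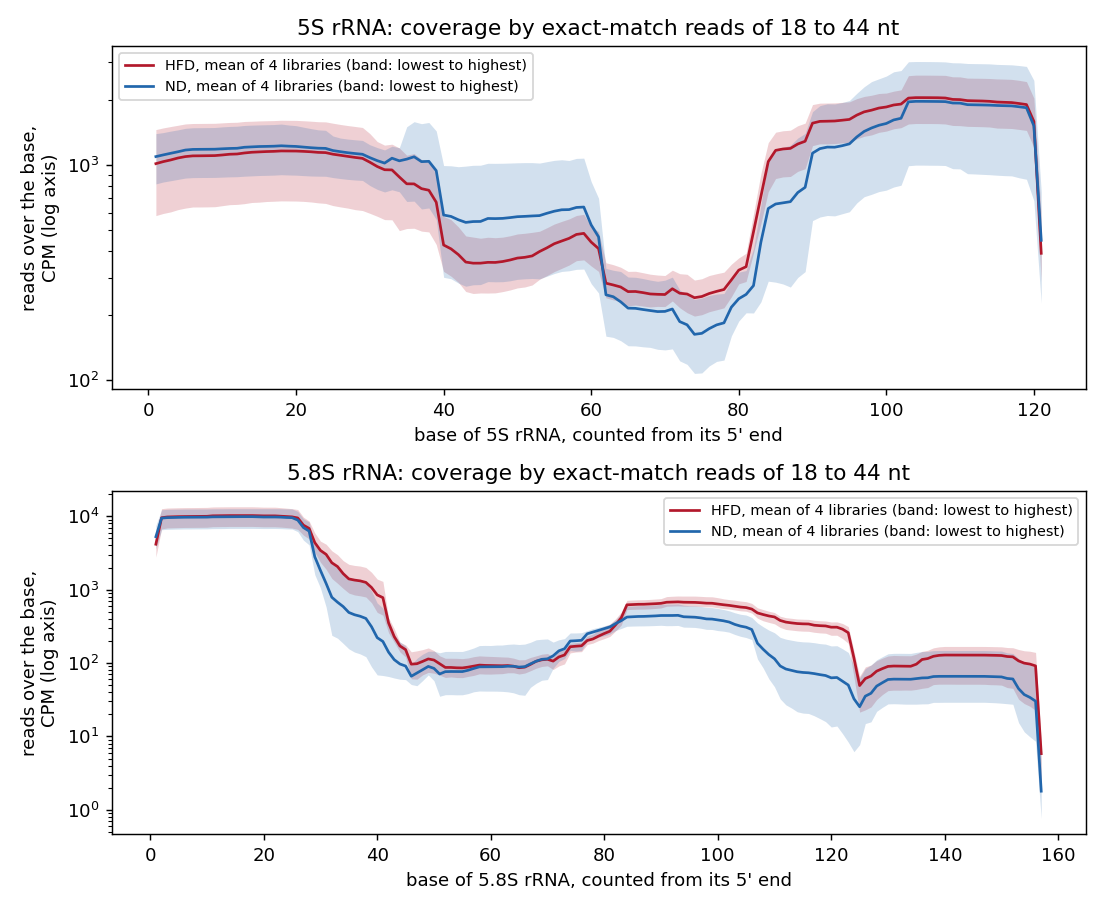
Coverage of each base of 5S rRNA (top) and 5.8S rRNA (bottom) by exact-match reads of 18 to 44 nt, in CPM on a log axis, with HFD in red and ND in blue; lines are means of 4 libraries and bands run from the lowest to the highest. 5.8S coverage peaks near 10036 CPM over the 5' end and is lowest at the last base, while 5S coverage peaks at base 104 and dips to about 203 CPM at base 74.

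5.8S fragments were the more abundant. 5S rRNA was at 2717 and 4901 CPM in Dnmt2-/- HFD, at 4119 and 3339 CPM in Dnmt2+/+ HFD, at 3430 and 2925 CPM in Dnmt2-/- ND and at 3962 and 5304 CPM in Dnmt2+/+ ND. 5.8S rRNA was at 8113 and 11151 CPM in Dnmt2-/- HFD, at 10806 and 14575 CPM in Dnmt2+/+ HFD, at 7391 and 13109 CPM in Dnmt2-/- ND and at 10171 and 11351 CPM in Dnmt2+/+ ND. Both diets and both genotypes overlapped for each rRNA. The 5.8S level was 2.14 to 4.48 times the 5S level in the same library. Per 100 nt of rRNA, 5.8S fragments were at 4708 to 9283 CPM and 5S fragments at 2245 to 4384 CPM.

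Neither level differed by diet or genotype beyond the spread of the libraries. 5S rRNA averaged 3769 ± 948 CPM on HFD and 3906 ± 1024 CPM on ND (SD, n = 4 each; two-sided exact permutation p = 0.857). 5.8S rRNA averaged 11161 ± 2650 CPM on HFD and 10506 ± 2402 CPM on ND (SD, n = 4 each; exact permutation p = 0.714). By genotype, 5S rRNA averaged 3493 ± 985 CPM in Dnmt2-/- and 4181 ± 821 CPM in Dnmt2+/+ (SD, n = 4 each; exact permutation p = 0.343), and lay below every Dnmt2+/+ library in 2 of 4 Dnmt2-/- libraries. 5.8S rRNA averaged 9941 ± 2667 CPM in Dnmt2-/- and 11726 ± 1960 CPM in Dnmt2+/+ (SD, n = 4 each; exact permutation p = 0.314). With 4 libraries against 4 the smallest p is 0.0286, and over the 16 tests of 8 measures and 2 contrasts the lowest Benjamini-Hochberg adjusted p was 0.457.

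Within one genotype or diet, an exact permutation test of 2 libraries against 2 cannot go below p = 0.333, so only values are given. On ND, 5S rRNA averaged 3178 ± 357 CPM in Dnmt2-/- and 4633 ± 949 CPM in Dnmt2+/+ (SD, n = 2 each), and the groups did not overlap. On HFD it averaged 3809 ± 1545 CPM in Dnmt2-/- and 3729 ± 552 CPM in Dnmt2+/+ (SD, n = 2 each), which overlapped. For 5.8S rRNA the HFD groups were at 9632 ± 2148 CPM in Dnmt2-/- and 12690 ± 2665 CPM in Dnmt2+/+ (SD, n = 2 each), and those overlapped too. With 1 substitution allowed they were at 12147 ± 1179 CPM in Dnmt2-/- and 17689 ± 3903 CPM in Dnmt2+/+ (SD, n = 2 each) and did not overlap. Under that rule Dnmt2+/+ libraries on ND were at 13346 ± 856 CPM (SD, n = 2), below both Dnmt2+/+ HFD libraries. With exact matching they were at 10761 ± 835 CPM (SD, n = 2) and overlapped the Dnmt2+/+ HFD libraries. Substitutions at the last base made up 18.3% and 19.7% of matched 5.8S reads in Dnmt2+/+ HFD, both of set B. They made up 9.87% and 11.5% in Dnmt2+/+ ND, and 19.1% and 5.83% in Dnmt2-/- HFD. Their part in these differences was not tested.

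For 5.8S rRNA the sign of the diet difference rested on the scale. With exact matches of all lengths 5S rRNA averaged lower on HFD on each scale tried. Its sign rested on the reads counted. With 1 substitution it averaged 4838 CPM on HFD and 4785 CPM on ND, and with reads of 24 nt or longer 3337 and 3224 CPM. With library sizes scaled by TMM, which evens out the bulk of distinct sequences between libraries, 5.8S rRNA averaged 9268 ± 2044 CPM on HFD and 12548 ± 2615 CPM on ND (SD, n = 4 each; exact permutation p = 0.171). Per 1000000 reads outside 30 to 34 nt, the length range typical of 5' tRNA fragments, it averaged 25402 ± 4543 on HFD and 33552 ± 6452 on ND (SD, n = 4 each; exact permutation p = 0.0857). 5S rRNA averaged 3169 ± 1029 CPM on HFD and 4626 ± 747 CPM on ND with TMM (SD, n = 4 each; exact permutation p = 0.0571), and 8648 ± 2221 on HFD and 12431 ± 2271 on ND outside 30 to 34 nt (SD, n = 4 each; exact permutation p = 0.0571). No difference on these scales passed adjustment.

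**Figure D2:**
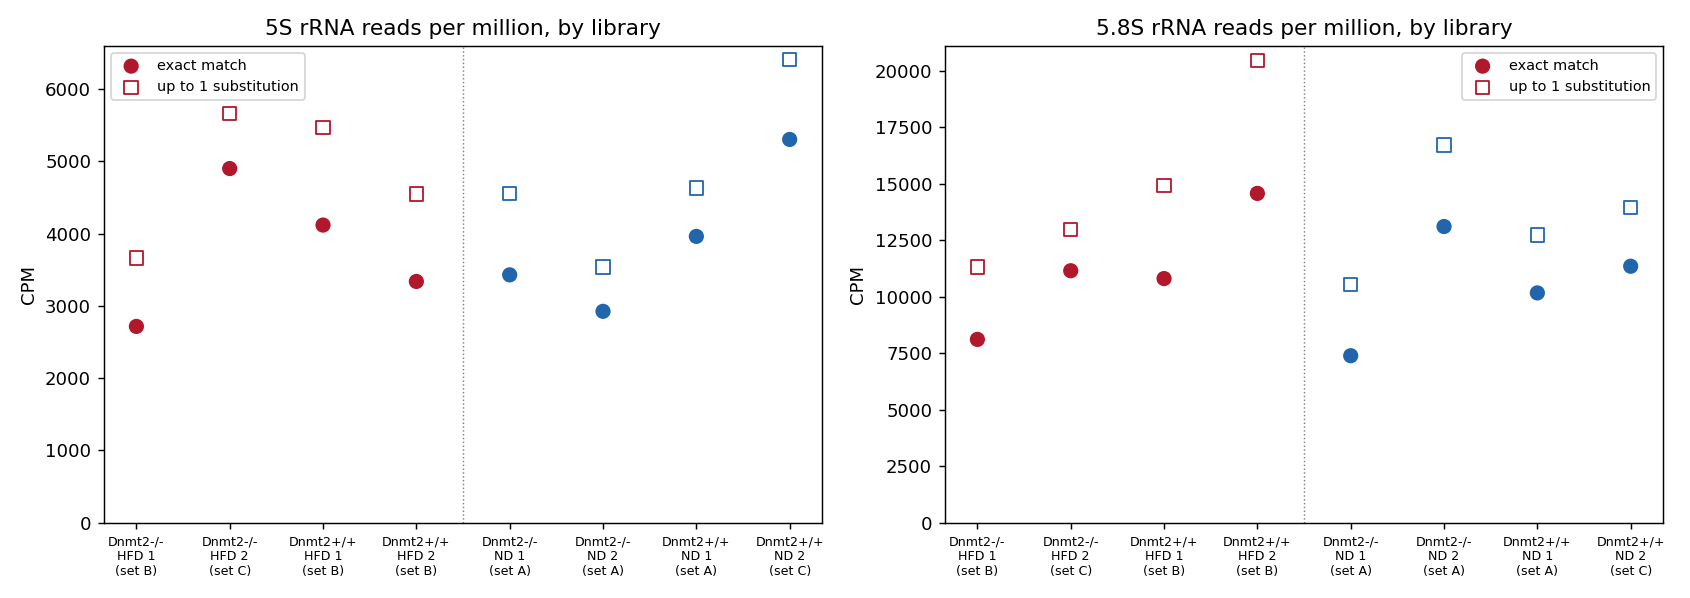
Reads per 1000000 (CPM, vertical axis from 0) of 5S rRNA (left) and 5.8S rRNA (right) in each of the 8 libraries, HFD in red and ND in blue; filled circles are exact matches and open squares allow 1 substitution. HFD and ND libraries overlap for both rRNAs under either match.

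5S rRNA gave reads from both ends and from its middle. The 5' fragments made up 22.3% and 30.7% of 5S reads in Dnmt2-/- HFD, 26.9% and 29.8% in Dnmt2+/+ HFD, 24.6% and 42.2% in Dnmt2-/- ND, and 25.5% and 27.0% in Dnmt2+/+ ND. The 3' fragments made up 53.2% and 49.7% in Dnmt2-/- HFD, 50.9% and 49.2% in Dnmt2+/+ HFD, 60.1% and 29.3% in Dnmt2-/- ND, and 40.0% and 54.0% in Dnmt2+/+ ND. The 3' shares of the 4 HFD libraries lay close together and within the ND range, and the 5' share of Dnmt2-/- HFD replicate 1 lay below every ND library. Dnmt2-/- ND replicate 2 had the highest 5' share and the lowest 3' share of the 8. Internal fragments made up 19.6% to 24.6% of 5S reads on HFD and 15.3% to 34.5% on ND.

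The shares of 5S classes were not separated by diet or genotype. The 5' share averaged 27.4% ± 3.80 on HFD and 29.9% ± 8.31 on ND (SD, n = 4 each; exact permutation p = 0.771), and the 3' share averaged 50.7% ± 1.77 on HFD and 45.8% ± 13.9 on ND (SD, n = 4 each; exact permutation p = 0.571). By genotype the 5' share averaged 29.96% ± 8.93 in Dnmt2-/- and 27.3% ± 1.78 in Dnmt2+/+ (exact permutation p = 0.743), and the 3' share 48.1% ± 13.2 in Dnmt2-/- and 48.5% ± 6.04 in Dnmt2+/+ (SD, n = 4 each; exact permutation p = 0.914).

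A few positions led the starts and ends of 5S reads, and the rest were spread over many others. Base 1 was the leading start, with 27.6% of 5S reads on average (21.4% to 40.4% by library), followed by base 90 with 8.52% and base 84 with 6.67%. The leading ends were bases 120, 121 and 119, with 29.3%, 10.6% and 8.38% of reads. Start positions in the 3' part varied between libraries: base 103 held 17.3% of starts in Dnmt2+/+ ND replicate 1 and 0.575% in Dnmt2+/+ HFD replicate 2.

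At the 3' end, bases 84 to 120 were at 172 and 266 CPM in Dnmt2-/- HFD, 327 and 229 CPM in Dnmt2+/+ HFD, 181 and 34.6 CPM in Dnmt2-/- ND, and 45.98 and 319 CPM in Dnmt2+/+ ND. The libraries Dnmt2-/- ND replicate 2 and Dnmt2+/+ ND replicate 1 stood lowest. The same 2 libraries stood lowest for bases 83 to 120, at 25.2 and 20.8 CPM, where the other six had 104 to 243 CPM. Bases 90 to 120, which lie wholly within those reads, were at 98.9 and 122 CPM there and at 130 to 305 CPM in the other six. The 2 lowest libraries are both of set A. All these reads span bases 110 and 113, where 4.43% and 9.27% of set A reads carried T in place of G. Exact matching leaves such reads out. Starts at base 84 held 1.66% and 1.53% of exact 5S reads in the 2 lowest libraries, and 2.80% and 2.41% with 1 substitution. In Dnmt2-/- ND replicate 1, also of set A, they held 7.21% and 10.3%.

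The leading internal 5S read, bases 35 to 61, was at 72.3 and 121 CPM in Dnmt2-/- HFD, 84.5 and 51.2 CPM in Dnmt2+/+ HFD, 53.5 and 94.1 CPM in Dnmt2-/- ND, and 220 and 112 CPM in Dnmt2+/+ ND. In Dnmt2+/+ both HFD libraries lay below both ND libraries, and in Dnmt2-/- the diets overlapped. The fitted log2 fold change of HFD over ND was -2.02 ± 0.85 in Dnmt2+/+ (SE; edgeR unadjusted p = 0.0362, adjusted p = 0.301) and -0.03 ± 0.82 in Dnmt2-/- (SE; edgeR unadjusted p = 0.969). The other leading internal reads overlap it: bases 35 to 59 were at 11.4 to 43.7 CPM on HFD and 26.2 to 129.6 CPM on ND, and bases 33 to 61 at 9.54 to 21.7 CPM on HFD and 13.7 to 71.8 CPM on ND. Dnmt2+/+ ND replicate 1 was the highest library for all 3.

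A second internal read, bases 46 to 71, had the lowest p of all members for HFD against ND in Dnmt2+/+. It was at 3.11 and 2.71 CPM in Dnmt2-/- HFD, 1.17 and 0.394 CPM in Dnmt2+/+ HFD, 6.14 and 4.87 CPM in Dnmt2-/- ND, and 13.9 and 13.8 CPM in Dnmt2+/+ ND. Every HFD library lay below every ND library. The log2 fold change in Dnmt2+/+ was -4.79 ± 1.05 (SE; edgeR unadjusted p = 0.000679, adjusted p = 0.281), which did not pass.

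Mean 5S read length was 31.9 and 31.5 nt in Dnmt2-/- HFD, 33.2 and 32.6 nt in Dnmt2+/+ HFD, 32.1 and 31.4 nt in Dnmt2-/- ND, and 28.4 and 30.2 nt in Dnmt2+/+ ND. It averaged 32.3 ± 0.734 nt on HFD and 30.53 ± 1.60 nt on ND (SD, n = 4 each; exact permutation p = 0.114). By genotype it averaged 31.7 ± 0.325 nt in Dnmt2-/- and 31.1 ± 2.19 nt in Dnmt2+/+ (SD, n = 4 each; exact permutation p = 0.629). In Dnmt2+/+, whose HFD libraries are of set B and whose ND libraries are of sets A and C, it averaged 32.9 ± 0.428 nt on HFD and 29.3 ± 1.30 nt on ND (SD, n = 2 each). In Dnmt2-/- it averaged 31.7 ± 0.273 nt on HFD and 31.7 ± 0.492 nt on ND (SD, n = 2 each). The difference between genotypes was not tested, and with library set as a term HFD minus ND was 0.0858 nt. Within set C mean 5S length was 31.5 nt on HFD and 30.2 nt on ND, the same direction as over all libraries. Dnmt2+/+ ND replicate 1 held the most short 5S reads, with 25.4% at 18 to 23 nt, against 7.48% to 19.2% in the other seven.

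**Figure D3:**
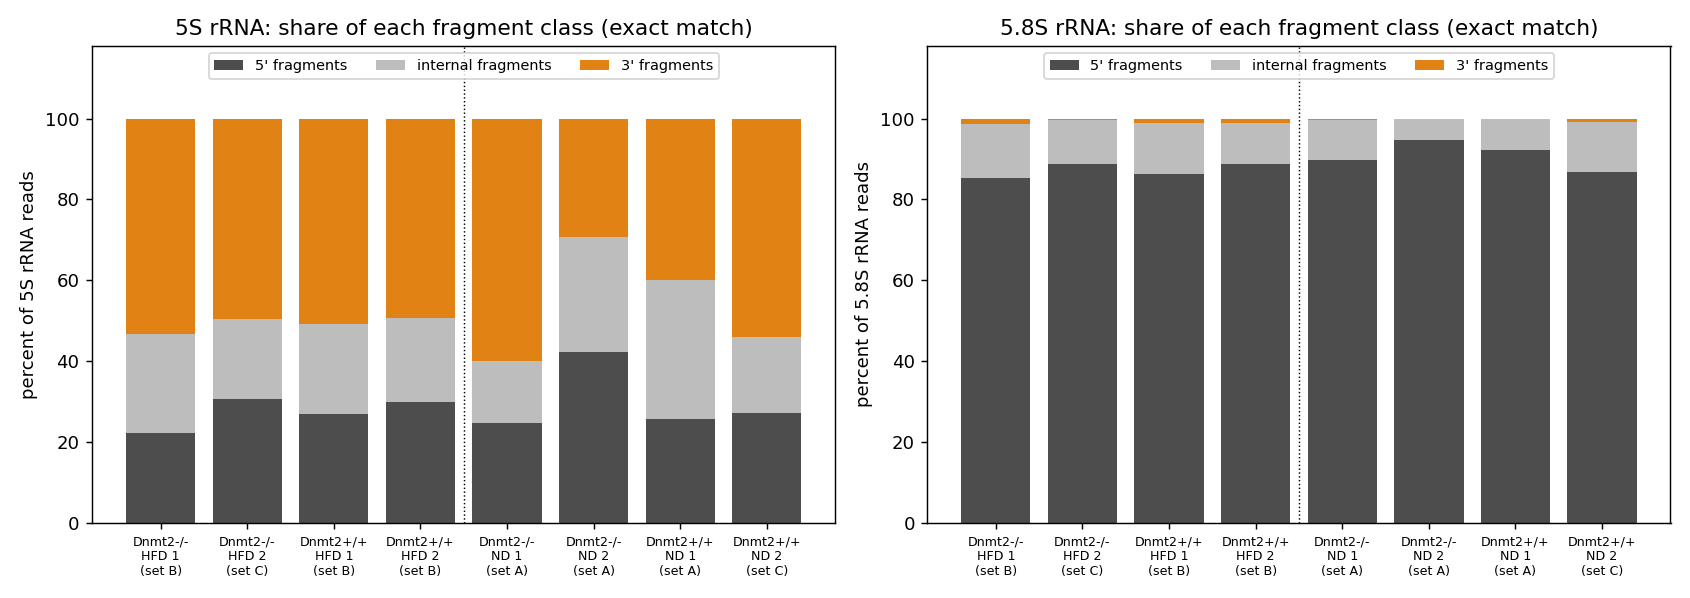
Percent of 5S rRNA reads (left) and 5.8S rRNA reads (right) in each library that are 5' (dark grey), internal (light grey) or 3' fragments (orange); each bar is 1 library, with the 4 HFD libraries left of the dotted line and the 4 ND libraries right of it. 5' fragments take 85.3% to 94.7% of 5.8S reads and 22.3% to 42.2% of 5S reads.

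5.8S reads were nearly all 5' fragments. These made up 85.3% and 88.7% of 5.8S reads in Dnmt2-/- HFD, 86.3% and 88.7% in Dnmt2+/+ HFD, 89.7% and 94.7% in Dnmt2-/- ND, and 92.3% and 86.9% in Dnmt2+/+ ND. The 3 highest were the libraries of set A. The 5' share averaged 87.3% ± 1.72 on HFD and 90.9% ± 3.36 on ND (SD, n = 4 each; exact permutation p = 0.114), and within set C it was 88.7% on HFD and 86.9% on ND, the other direction. By genotype it averaged 89.6% ± 3.85 in Dnmt2-/- and 88.5% ± 2.70 in Dnmt2+/+ (SD, n = 4 each; exact permutation p = 0.686).

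5.8S 3' fragments were rare. They made up 1.26% and 0.231% of 5.8S reads in Dnmt2-/- HFD, 1.06% and 0.994% in Dnmt2+/+ HFD, 0.275% and 0.0754% in Dnmt2-/- ND, and 0.119% and 0.827% in Dnmt2+/+ ND. The 3 set B libraries were above every ND library, and Dnmt2-/- HFD replicate 2 was not. The share averaged 0.886% ± 0.451 on HFD and 0.324% ± 0.346 on ND (SD, n = 4 each; exact permutation p = 0.0857), but within set C it was 0.231% on HFD and 0.827% on ND. By genotype it averaged 0.460% ± 0.539 in Dnmt2-/- and 0.750% ± 0.432 in Dnmt2+/+ (SD, n = 4 each; exact permutation p = 0.457).

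Starts of 5.8S reads fell on adjacent bases. Base 2 held 44.05% of starts on average (36.5% to 52.6%) and base 1 held 43.3% (31.4% to 57.0%), followed by base 3 with 1.73%. The leading ends were bases 28, 26 and 29, with 27.5%, 17.3% and 8.80% of reads. The share ending at base 28 ranged from 18.1% to 40.5%.

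The most abundant of all members was the 28-nt read of 5.8S bases 1 to 28. It was at 664 and 1850 CPM in Dnmt2-/- HFD, 736 and 1206 CPM in Dnmt2+/+ HFD, 1323 and 3437 CPM in Dnmt2-/- ND, and 2628 and 934 CPM in Dnmt2+/+ ND. Diets and genotypes overlapped, and its log2 fold change of HFD over ND was -1.59 ± 0.91 in Dnmt2+/+ (SE; edgeR adjusted p = 0.432) and -1.32 ± 0.90 in Dnmt2-/- (SE; edgeR adjusted p = 0.573). The same read without its first base, bases 2 to 28, varied less, from 885 to 1735 CPM on HFD and from 1130 to 1823 CPM on ND. Bases 1 to 26 ranged from 499 to 1447 CPM on HFD and from 725 to 1455 CPM on ND.

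Fewer reads came from the rest of 5.8S rRNA. A group of internal reads started at base 84, which held 1.17% of starts on average. The most abundant one, bases 84 to 123, was at 64.0 and 56.3 CPM in Dnmt2-/- HFD, 141 and 76.045 CPM in Dnmt2+/+ HFD, 0 and 0.0760 CPM in Dnmt2-/- ND, and 0 and 30.7 CPM in Dnmt2+/+ ND. The 3 libraries at or near 0 were those of set A. Bases 84 to 124 were at 22.0 to 55.4 CPM on HFD, and on ND at 0 in all 3 set A libraries and at 13.3 CPM in Dnmt2+/+ ND replicate 2. Bases 84 to 123 and 84 to 124 span base 112. There 80.9% of set A reads carried T in place of G, and exact matching leaves such reads out. Another internal read, bases 11 to 38, was at 27.8 to 40.6 CPM on HFD and 12.7 to 24.0 CPM on ND, and every HFD library lay above every ND library. The leading 3' read, bases 124 to 156, was at 3.83 to 28.2 CPM on HFD and 1.21 to 23.8 CPM on ND. Bases 126 to 156 were at 2.86 to 23.6 CPM on HFD and 1.75 to 16.6 CPM on ND, and bases 136 to 156 were at 1.35 to 28.3 CPM on HFD and 0.158 to 3.44 CPM on ND. The diets overlapped for all 3 of these 3' reads.

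Long 5.8S reads were scarce in set A under exact matching. The share of 5.8S reads of 39 to 44 nt was 10.7% and 5.40% in Dnmt2-/- HFD, 9.06% and 10.6% in Dnmt2+/+ HFD, 0.653% and 0.231% in Dnmt2-/- ND, and 0.118% and 6.18% in Dnmt2+/+ ND. The 3 lowest were the libraries of set A, and Dnmt2+/+ ND replicate 2 lay above Dnmt2-/- HFD replicate 2. Mean 5.8S read length was 29.2 and 28.2 nt in Dnmt2-/- HFD, 29.5 and 29.1 nt in Dnmt2+/+ HFD, 27.3 and 27.3 nt in Dnmt2-/- ND, and 27.3 and 28.3 nt in Dnmt2+/+ ND. It averaged 29.003 ± 0.553 nt on HFD and 27.5 ± 0.49998 nt on ND (exact permutation of 4 libraries against 4, p = 0.0571, BH-adjusted 0.457). In 3 of 4 HFD libraries it lay above every ND library, and within set C it was 28.2 nt on HFD and 28.3 nt on ND. By genotype it averaged 27.999 ± 0.920 nt in Dnmt2-/- and 28.6 ± 0.960 nt in Dnmt2+/+ (SD, n = 4 each; exact permutation p = 0.400).

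Those values moved with a substitution. At base 31 of 5.8S rRNA, reads carried G31T (G in the rRNA and T in the read, counted from base 1) in 73.1%, 65.4% and 61.6% of the reads over that base in the set A libraries, which are Dnmt2-/- ND replicate 1, Dnmt2-/- ND replicate 2 and Dnmt2+/+ ND replicate 1. In the other five libraries the share was 0.640% to 1.25%. In set A it varied with where the read started. It was 99.5% to 100% in reads from base 3, where base 31 is the 29th base of the read. In reads from base 2 it was 79.1% to 93.5%, and in reads from base 1 it was 56.0% to 70.0%. Changes from G to T were also frequent at bases 39, 56 and 112 in set A, with 31.6%, 21.4% and 80.9% of reads. In 5S rRNA the highest such share in set A was 9.27%, at base 113, over all read starts. In 5S reads from base 82 the 29th base is base 110, and from base 85 it is base 113. In set A, in the order above, starts at base 82 held 0.391%, 0.283% and 0.0729% of exact 5S reads. With 1 substitution they held 3.21%, 2.72% and 0.457%. Starts at base 85 went from 0.303%, 0.0728% and 0.06896% to 1.996%, 0.735% and 0.591%. In sets B and C these shares were 1.79% to 4.63% when exact and 1.79% to 4.74% with 1 substitution. Exact matching leaves out the reads that carry a change from G to T.

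With 1 substitution allowed, the contrast of 5.8S lengths narrowed. The 5' 5.8S reads that reach base 31 were at 1947 and 1524 CPM in Dnmt2-/- HFD, 3303 and 3711 CPM in Dnmt2+/+ HFD, 394 and 498 CPM in Dnmt2-/- ND, and 364 and 2548 CPM in Dnmt2+/+ ND under exact matching. With 1 substitution they were at 2570 and 1764 CPM in Dnmt2-/- HFD, 4365 and 4887 CPM in Dnmt2+/+ HFD, 2068 and 1974 CPM in Dnmt2-/- ND, and 1363 and 3082 CPM in Dnmt2+/+ ND. The diets overlapped under both rules. Mean 5.8S length with 1 substitution was 28.9 ± 0.486 nt on HFD and 28.1 ± 0.260 nt on ND (exact permutation of 4 libraries against 4, p = 0.0857, BH-adjusted 0.610), so the difference of 1.46 nt fell to 0.785 nt. Reads of 39 to 44 nt then made up 5.36% to 9.68% of 5.8S reads on HFD and 0.726% to 5.802% on ND, and the overlap again lay between the 2 set C libraries.

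**Figure D4:**
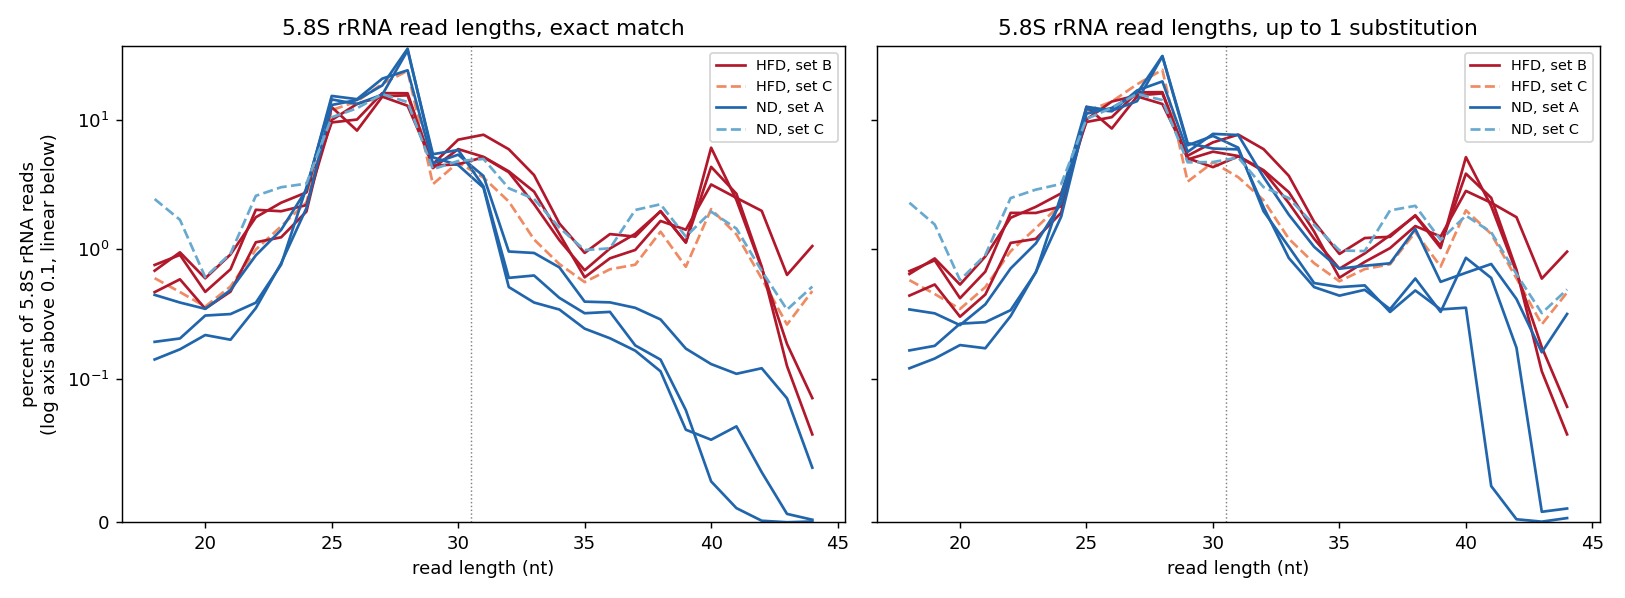
Percent of 5.8S rRNA reads at each read length (nt) in each library under exact matching (left) and with 1 substitution allowed (right); the vertical axis is logarithmic above 0.1 and linear below, lines are single libraries, and the dotted line stands between 30 and 31 nt. From 32 nt on the 3 ND libraries of set A run lowest under exact matching and lie closer to the others with 1 substitution.

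**Figure D5:**
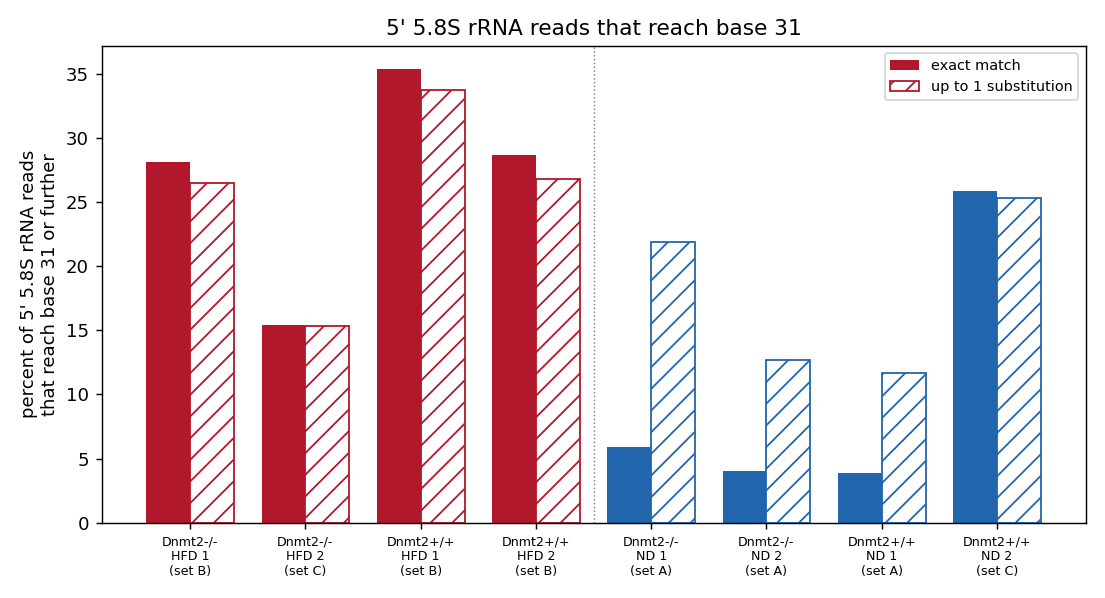
Percent of 5' 5.8S rRNA reads that reach base 31 or further in each library, under exact matching (filled bars) and with 1 substitution (hatched bars), HFD in red and ND in blue. The 3 set A libraries stand at 3.88% to 5.94% under exact matching and at 11.7% to 21.9% with 1 substitution, while the other five change by less than in set A.

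The levels of both rRNAs were higher with 1 substitution allowed. 5S rRNA was then at 3663 and 5667 CPM in Dnmt2-/- HFD, 5471 and 4552 CPM in Dnmt2+/+ HFD, 4558 and 3536 CPM in Dnmt2-/- ND, and 4634 and 6413 CPM in Dnmt2+/+ ND. 5.8S rRNA was at 11313 and 12980 CPM in Dnmt2-/- HFD, 14929 and 20449 CPM in Dnmt2+/+ HFD, 10554 and 16723 CPM in Dnmt2-/- ND, and 12741 and 13951 CPM in Dnmt2+/+ ND. The diets differed by less than the spread between libraries (exact permutation p = 0.886 for 5S and 0.600 for 5.8S rRNA). Substitutions at the last base of a read made up 17.1% to 19.7% of matched reads in set B and 3.12% to 13.4% in the other five libraries.

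Single member sequences were tested in one fit of all 50460 sequences kept by the filter on low counts, 1045 of them members (462 of 5S and 583 of 5.8S rRNA). The members kept held 95.9% of 5S reads and 98.7% of 5.8S reads. edgeR's quasi-likelihood test called 0 members at an adjusted p under 0.05 in each of the 5 comparisons, and it called 0% of all sequences too. At an unadjusted p under 0.05 it listed 98 members for HFD against ND in Dnmt2-/-, 68 for HFD against ND in Dnmt2+/+, 8 for Dnmt2-/- against Dnmt2+/+ on HFD, 70 for Dnmt2-/- against Dnmt2+/+ on ND and 54 for the interaction of diet and genotype. The same counts over all sequences were 6807, 7734, 2167, 1725 and 2226.

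DESeq2 called more. For HFD against ND it called 33 members in Dnmt2-/-, all higher on HFD and 32 of them 5.8S, beside 2.03% of all sequences, and 4 members in Dnmt2+/+, all 5S and lower on HFD, beside 2.1% of all sequences. For Dnmt2-/- against Dnmt2+/+ it called 0 members on HFD, beside 0.0892% of all sequences, and 3 members on ND, all 5.8S and lower in Dnmt2-/-, beside 0.0852%. It called 0 members for the interaction, beside 0.0555% of all sequences. Of 1045 members, the background share gives fewer than 33 calls in Dnmt2-/- and more than 4 in Dnmt2+/+, and neither difference was tested.

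Many 5.8S members of low p spanned a base often changed in set A, but not in every comparison. For HFD against ND in Dnmt2-/-, both of whose ND libraries are in set A, 93 of the 98 members were higher on HFD. Of these 93, 75 were 5.8S, and 69 of the 75 (92.0%) spanned base 31, 39, 56 or 112. Of the 59 5.8S members lower in Dnmt2-/- than in Dnmt2+/+ on ND, 56 (94.9%) did. Of all 583 5.8S members tested, 283 (48.5%) did. In the diet comparison within Dnmt2+/+, 3 of 19 5.8S members lower on HFD did (15.8%), and 4 of 8 higher ones. In Dnmt2-/- 1 of the 5 5.8S members lower on HFD did.

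For HFD against ND in Dnmt2+/+, 59 of the 68 members were lower on HFD, and 40 of these were 5S, 31 of them internal. Of all 462 5S members tested, 334 were internal, so most of any such list would be. The direction of change was not counted over all sequences. The interaction's 54 members all had a positive interaction term, and 38 of them were 5.8S, all spanning one of those bases. Over all sequences the median log2 fold change of HFD over ND was 0.12 in Dnmt2-/- and -0.15 in Dnmt2+/+. For 5S members it was -0.08 in Dnmt2-/- and -0.58 in Dnmt2+/+, and for 5.8S members 0.25 in Dnmt2-/- and -0.12 in Dnmt2+/+. On the scale of the library total alone, the median over all sequences was 0.56 in Dnmt2-/- and 0.39 in Dnmt2+/+. On that scale it was 0.35 in Dnmt2-/- and -0.01 in Dnmt2+/+ for 5S members. For 5.8S members it was 0.70 in Dnmt2-/- and 0.42 in Dnmt2+/+.

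Of the 5 members of lowest p, 3 were 5.8S reads that span such a base and 2 were 5S reads. For HFD against ND in Dnmt2-/- it was the internal 5.8S read of bases 84 to 116, at 11.7 and 3.98 CPM in Dnmt2-/- HFD, 8.26 and 11.4 CPM in Dnmt2+/+ HFD, 0 and 0 CPM in Dnmt2-/- ND, and 0 and 1.17 CPM in Dnmt2+/+ ND (edgeR unadjusted p = 0.00177, adjusted p = 0.263). It spans base 112. For Dnmt2-/- against Dnmt2+/+ on ND it was 5.8S bases 3 to 31, at 0 and 0 CPM in Dnmt2-/- ND and 0.0525 and 30.6 CPM in Dnmt2+/+ ND (edgeR unadjusted p = 0.00308). For the interaction it was 5.8S bases 2 to 45, at 74.8 and 46.3 CPM in Dnmt2-/- HFD, 3.496 and 8.17 CPM in Dnmt2+/+ HFD, 0.607 and 0 CPM in Dnmt2-/- ND, and 0.0525 and 51.5 CPM in Dnmt2+/+ ND (edgeR unadjusted p = 0.00596). For Dnmt2-/- against Dnmt2+/+ on HFD it was the 18-nt 5S read of bases 35 to 52, at 0.194 and 1.80 CPM in Dnmt2-/- HFD and 0.0971 and 0 CPM in Dnmt2+/+ HFD (edgeR unadjusted p = 0.0194), levels near that of a few reads.

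Few members separated the diets in every library. All 4 HFD libraries lay above all 4 ND libraries for 26 of 462 5S members and 36 of 583 5.8S members, beside 8.23% of all sequences tested, and below them for 9 and 15, beside 1.44%. Of the 36 5.8S members above, 24 (66.7%) spanned one of the 4 bases often changed in set A. By genotype, all 4 Dnmt2-/- libraries lay above all 4 Dnmt2+/+ libraries for 1 5S and 0 5.8S members, beside 0.244% of all sequences, and below them for 7 and 5, beside 0.591%. The members' shares lay under the background for HFD above ND and over it for HFD below ND and for Dnmt2-/- below Dnmt2+/+, and none of this was tested.

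Some reads ran past the ends of the mature rRNAs. Reads with extra bases before base 1 of 5.8S rRNA, on the side of the first internal transcribed spacer, were at 722 and 563 CPM in Dnmt2-/- HFD, 1044 and 1609 CPM in Dnmt2+/+ HFD, 481 and 896 CPM in Dnmt2-/- ND, and 681 and 712 CPM in Dnmt2+/+ ND. They made up 9.08% to 17.5% of the reads that hold the first 16 bases, and the 3 highest shares, 15.1%, 17.5% and 16.1%, were in set B. Extensions of 1, 5 and 3 bases were the most frequent, with 327, 169 and 156 CPM on average. Reads with bases before base 1 of 5S rRNA were at 1.42 to 9.16 CPM. Reads past the last base were at 8.67 to 26.3 CPM for 5S rRNA and 0 to 1.85 CPM for 5.8S rRNA. Antisense reads numbered 0 to 5 in a library for either rRNA.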

How the data were processed

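Per the labels' protocols, the libraries were made from Trizol-extracted total RNA of mature sperm with the TruSeq small RNA kit. The deposited values are counts: for every sperm library, the number of reads of each distinct sequence, with its length. The sources used here do not say how adapters were trimmed. The submitters' processing notes name mm10 and GRCm38, and the coordinates come from RefSeq's GRCm38.p6 table. The 8 cell-line mRNA libraries of the series were not used.

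As no rRNA sequence was given, both rRNAs were rebuilt from the reads: from a 9-nt textbook motif at base 1, each was extended by 16-nt overlaps until under 5% of reads or under 1 CPM went on. Base 1 rests on that motif, and the last base of 5.8S rRNA on a vote of 65.0%. No 5.8S letters are printed, as the chromosomes of its gene copies were not established here. CPM is per 1000000 reads of the library.

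The members and lists were chosen with earlier results of these data known. Measures per library were compared by two-sided exact permutation, adjusted over 16 tests. Distinct sequences were tested with edgeR 4.0.16 (TMM, filterByExpr, 4 groups in one fit) in R 4.3.3 and with DESeq2 1.42.0. The edgeR fit and the permutation test were checked on simulated data. The counts simulated for edgeR varied less between libraries than these data, whose common dispersion was 0.659. That check therefore does not show how the fit performs at the spread of these data. The text names the 3 most abundant reads of each rRNA and class, the 3 leading starts and ends, and the member of lowest p of each comparison; others named were chosen after their values were seen, and the leading 5S reads of 1 class are not reported here. The measures of long reads and of bases before base 1, and the count of members spanning changed bases were added after the reads were seen. Replicate pairs differed by more than counting noise (chi-square per sequence of 16.9 to 91.8), so none was counted as 1 library. The 95% Wilson interval of the members' share was 1.08% to 1.09% where that share was lowest and 1.78% to 1.80% where it was highest. Intervals and floors cover counting error only, as no molecular identifiers were counted. Plots were drawn with matplotlib 3.10.9.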

Additional observations from a re-analysis of the deposited data

Results flagged for a closer look

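Of 32 checks for a library far from the other three of its diet or genotype, 3 were past Dixon's 95% critical value, and chance gives about 1 in 20. The 5' share of 5S reads was 42.2% in Dnmt2-/- ND replicate 2, against 24.6% to 27.0% in the other ND libraries. The 3' share of 5.8S reads was 1.26% in Dnmt2-/- HFD replicate 1, against 0.0754% to 0.275% in the other Dnmt2-/- libraries. Mean 5.8S read length under exact matching was 28.3 nt in Dnmt2+/+ ND replicate 2, the only ND library outside set A. The other ND libraries were at 27.3 nt each. With 1 substitution allowed, Dnmt2+/+ ND replicate 2 was at 28.3 nt, within the range of the other ND libraries, 27.8 to 28.4 nt.

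The genotype difference in mean 5S read length had opposite signs on the 2 diets: -1.17 nt on HFD, where both Dnmt2-/- libraries lay below both Dnmt2+/+ libraries, and 2.40 nt on ND, where both lay above. This difference between diets was not tested.

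Outside the exact matches, reads with bases before base 1 of 5.8S rRNA reached 481 CPM in the library where they were lowest. Reads with G31T in 5.8S rRNA averaged 509 CPM over the 8 libraries, nearly all from set A.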

How the results depend on the processing

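None of the 16 differences of levels, shares and lengths passed adjustment under the alternatives that carry a test, so signs that turned belong to differences within the spread. For HFD minus ND the difference in 5S CPM was 53.1 with 1 substitution and 113 with reads of 24 nt or longer, in 5.8S CPM -8150 per 1000000 reads outside 30 to 34 nt and -3280 with TMM, and in the 5S 3' share -0.701 points with ends at the last base only. For Dnmt2-/- minus Dnmt2+/+ the 5S 3' share difference was 0.827 points with 1 substitution and 1.28 with reads of 24 nt or longer, and 5.8S CPM 420 with TMM. With library set as a term, HFD minus ND was 496 (5S CPM), 2049 (5.8S CPM), 2.80 points (5S 5' share), -8.23 points (5S 3' share), 3.04 (5.8S 5' share), -0.740 (5.8S 3' share), 0.0858 nt (5S length) and -0.0342 nt (5.8S length). Within set C it was -403 (5S CPM), -200.1 (5.8S CPM), 3.69 and -4.32 points (5S 5' and 3' shares), and 1.87 and -0.596 points (5.8S 5' and 3' shares). There it was 1.26 nt for 5S length and -0.0892 nt for 5.8S length. Dnmt2-/- minus Dnmt2+/+ within set B (1 library against 2) was -4577 (5.8S CPM), -6.10 points (5S 5' share), 0.231 points (5.8S 3' share) and -0.973 nt (5S length). Within set A (2 against 1) these were 79.0, 7.88 points, 0.0564 points and 3.32 nt. Within set C (1 against 1) they were -200.1, 3.69 points, -0.596 points and 1.26 nt. The causes were not tested. With the replicate number as a block (replicate block), where the exact permutation p cannot go below 0.0556, the lowest was p = 0.111 and none of the 16 passed (0 called in each of the 5 edgeR comparisons); same-numbered libraries share only a number, and their deviations correlated at -0.268 to 0.206.

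Leaving out 1 library at a time, HFD minus ND ranged from -514 to 330 (5S CPM), -482 to 1672 (5.8S CPM), -4.18 to 1.70 points (5S 5' share), -0.591 to 9.66 (5S 3' share), -4.93 to -2.34 (5.8S 5' share), 0.438 to 0.780 (5.8S 3' share), 1.05 to 2.27 nt (5S length) and 1.30 to 1.72 nt (5.8S length). Dnmt2-/- minus Dnmt2+/+ ranged from -1157 to -313 (5S CPM), -2841 to -835 (5.8S CPM), -1.46 to 5.19 points (5S 5' share), -4.47 to 5.78 (5S 3' share), -0.645 to 2.46 (5.8S 5' share), -0.556 to -0.162 (5.8S 3' share), -0.279 to 1.31 nt (5S length) and -0.963 to -0.243 nt (5.8S length). None passed.

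edgeR's count of members called was 0 in each comparison, and the alternatives that made calls also called other sequences. For HFD against ND in Dnmt2-/- it was 33 with DESeq2 (1023 of all 50460 sequences) and 47 of 2128 with a filter of 10 reads in sum (2240 of all 187037). It was 0 to 70 when 1 library was left out: 70 of 1313 without Dnmt2+/+ ND replicate 1 (4291 of all 78286), 66 of 1240 without Dnmt2+/+ ND replicate 2 (4410 of 76843), 32 of 1261 and 26 of 1255 without Dnmt2+/+ HFD replicates 1 and 2 (1840 of 72594 and 1308 of 75243), and 6 of 1302 without Dnmt2-/- HFD replicate 2 (80 of 75142). For HFD against ND in Dnmt2+/+ it was 4 with DESeq2 (1060 of all) and 3 with the filter (1818 of all), and 0 to 102: 102 of 1240 without Dnmt2+/+ ND replicate 2 (6701 of 76843) and 3 without either Dnmt2-/- HFD library (1806 of 77484 and 1622 of 75142). For Dnmt2-/- against Dnmt2+/+ on ND it was 3 with DESeq2 (43 of all), 17 with the filter (107 of all), 5 with library set as a term (79 of all), and 0 to 60: 60 of 1313 without Dnmt2+/+ ND replicate 1 (1662 of 78286). On HFD it was 1 with library set as a term (70 of all) and 0 to 0 leaving 1 library out. For the interaction it was 6 with the filter (227 of all) and 0 to 37: 37 of 1313 without Dnmt2+/+ ND replicate 1 (656 of 78286). An arm left with 1 library was assumed to vary like the other groups. DESeq2 size factors, the library total and grouping by the first 18 bases left it at 0 in every comparison. With 2 libraries a group, and diet tied to library set, small differences were not detectable here.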
